A study of Homo sapiens with 6 samples.

Results

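The genes described here belong to families that set the threshold for apoptosis, the programmed death of a cell. They are the protein-coding genes whose symbols start with BCL2, TNFRSF, TNFSF, BIRC, or CASP and a digit, and each was read at its brightest probe set, the group of array probes that measures a gene. The rule found 14 genes among 14884 named genes of the array. They were 9 genes with a BCL2 symbol, 4 with a BIRC symbol and CASP8AP2, which encodes a caspase-8 binding protein and not a caspase. Genes with TNFRSF and TNFSF symbols and the caspase genes were not analysed here, so the values concern the BCL2 and BIRC families and not death receptors or caspases.

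RNA was measured in SH-SY5Y, an established human neuroblastoma line with features of sympathetic neurons, on 6 Affymetrix Human Gene 2.0 ST arrays. Cells received securinine, a plant alkaloid, at 30 µM, or 16F16, a synthetic compound, at 4 µM, or the solvent methanol as mock treatment, each for 24 h and each on 2 arrays. Both compounds are given in the series as inhibitors of protein disulfide isomerase, which helps proteins fold by making and reshuffling their disulfide bridges, and their doses differed. The labels name the arrays of a group biological replicates without saying how the cultures were separated, so p-values measure the spread between these samples, which may be technical. All values are log2 expression levels as deposited, and the number of arrays limits their precision. Arrays of the same group correlated at 0.993 to 0.995 over the named genes and arrays of different groups at 0.983 to 0.991. Of 12 noradrenergic neuroblastoma markers 10 were measured, all above the lower quartile of probe sets on every array, and their summed log2 level was 89.6 to 90.6 with securinine, 93.1 to 93.4 with 16F16 and 97.3 to 97.4 with mock. CHGA, CHGB, DDC, DBH and GATA2 fell with securinine, and CHGA, CHGB and DDC with 16F16. Of 12 epithelial, blood and endothelial markers 6 were measured, with 0 or 1 of them at or below the lower quartile on each array. Their summed log2 levels were 27.9 to 28.1 with securinine, 27.5 to 28.9 with 16F16 and 28.1 to 28.4 with mock. The sums cover different numbers of genes and do not compare the lists. CD14 rose with securinine (0.57 ± 0.14). The part of these markers in the results below was not tested.

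In the mitochondrial pathway of apoptosis, pro-survival proteins such as BCL2, BCL-xL (the main product of BCL2L1) and MCL1 hold the pore-forming effectors BAX and BAK in check. BH3-only proteins such as BIM (from BCL2L11), PUMA (BBC3), NOXA (PMAIP1) and BMF bind the pro-survival proteins and so free the effectors, which release cytochrome c and lead to caspase activation. BIRC proteins carry the baculoviral repeat of the inhibitor of apoptosis family, and its members restrain caspases, tag signalling proteins with ubiquitin or serve in cell division.

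The upstream sequences of the 4 genes that passed the test with securinine are shown to give the DNA next to the genes that moved. They are the 250 bases before the most upstream start that the RefSeq table lists for each gene on GRCh38.p14, read 5′ to 3′ along the gene. BCL2 lies at chr18:63319770-63320019 on the minus strand, BIRC2 at chr11:102346964-102347213 on the plus strand, BIRC6 at chr2:32356773-32357022 on the plus strand and BCL2L11 at chr2:111120664-111120913 on the plus strand. Capitals mark a match to a searched motif.
BCL2: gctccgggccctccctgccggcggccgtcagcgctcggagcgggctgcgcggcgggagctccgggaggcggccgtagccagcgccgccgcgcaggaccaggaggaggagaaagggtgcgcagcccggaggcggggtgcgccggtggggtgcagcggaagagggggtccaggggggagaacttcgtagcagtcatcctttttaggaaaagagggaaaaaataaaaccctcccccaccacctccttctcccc
BIRC2: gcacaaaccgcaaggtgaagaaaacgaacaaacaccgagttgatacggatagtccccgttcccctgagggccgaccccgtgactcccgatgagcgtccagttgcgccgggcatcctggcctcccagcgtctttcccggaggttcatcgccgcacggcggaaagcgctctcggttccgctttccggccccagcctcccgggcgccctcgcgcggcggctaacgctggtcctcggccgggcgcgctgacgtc
BIRC6: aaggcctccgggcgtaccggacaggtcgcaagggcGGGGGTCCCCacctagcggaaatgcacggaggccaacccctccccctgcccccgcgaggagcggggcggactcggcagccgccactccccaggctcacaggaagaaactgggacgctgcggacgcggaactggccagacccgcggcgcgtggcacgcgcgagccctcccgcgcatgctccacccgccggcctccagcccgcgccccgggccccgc
BCL2L11: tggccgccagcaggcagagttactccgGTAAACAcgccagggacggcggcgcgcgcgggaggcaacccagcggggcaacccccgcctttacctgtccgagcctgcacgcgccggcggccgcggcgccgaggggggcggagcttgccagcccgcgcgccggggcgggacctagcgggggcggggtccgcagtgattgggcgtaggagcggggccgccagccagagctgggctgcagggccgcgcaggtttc
Such sequences were matched for 12 of the 14 genes. The motifs searched on both strands were TGACNNNGC (antioxidant response element of NRF2), TGANTCA (AP-1), TGACGTCA (cyclic AMP response element), CACGTG (E-box of MYC), TTTCGCGC (E2F), GTAAACA (FOXO), and the NF-kB and p53 half-site motifs. A CACGTG or other palindrome reads the same on both strands, and an antioxidant response element can overlap an AP-1 match. Upstream of BCL2L11 the FOXO motif stood at positions -223 to -217 from the start, and 3.01% of 27305 promoters held that motif in the same window. The NF-kB motif stood at positions -215 to -206 from the BIRC6 start, and 9.58% of promoters held one. The BIRC6 and BCL2L11 windows were 76.4% and 76.8% G or C, against a median of 57.6% over all promoters. The shares of promoters were not matched for this content. In the windows of BCL2 and BIRC2 no searched motif was found. BCL2L14 also had a FOXO match and BIRC7 an E-box, which 6.46% of promoters held. A match is a description of the letters and not a bound site.

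The first comparison was securinine against mock. BCL2, BIRC6 and BIRC2, which encode proteins known to hold apoptosis back, rose by 0.35 to 0.67 on the log2 scale, and BCL2L11, which encodes the BH3-only killer BIM, fell. The other 10 genes did not pass. Of the 14 genes 3 rose and 1 fell, or 28.6%, where 19% of the 14884 genes tested passed in either direction, 8.4% higher and 10.6% lower. The median difference of the 14 genes was 0.10, against -0.035 for all genes. The RNA came from whole cultures, so fewer cells of a type and less RNA per cell cannot be told apart.

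BCL2, the founding pro-survival gene of its family, stood at 9.31 and 9.25 in securinine cells, 8.86 and 9.08 in 16F16 cells and 8.64 and 8.59 in mock cells. Both compounds' arrays lay above both mock arrays, with securinine highest and no overlap between the groups. The rise with securinine was 0.67 ± 0.10 (SE, n = 2 arrays per group), or 1.59-fold, with a limma adjusted p of 0.011. BIRC6, a giant ubiquitin-conjugating enzyme of the inhibitor of apoptosis family, had 9.47 and 9.65 in securinine cells, 9.19 and 9.21 in 16F16 cells and 9.06 and 8.98 in mock cells. Its groups did not overlap either, and it rose by 0.54 ± 0.095 with securinine (1.46-fold, adjusted p = 0.016). BIRC2 encodes the ubiquitin ligase cIAP1, which acts on RIPK1 and on MAP3K14, a kinase upstream of NF-kB. It had 6.86 and 6.91 in securinine cells, 6.61 and 6.46 in 16F16 cells and 6.53 and 6.54 in mock cells. Here the securinine arrays stood apart while the 16F16 arrays lay on both sides of mock, and the rise with securinine was 0.35 ± 0.086 (1.28-fold, adjusted p = 0.042).

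BCL2L11 had 5.69 and 5.68 in securinine cells, 5.96 and 5.91 in 16F16 cells and 6.04 and 6.03 in mock cells. The securinine arrays were the lowest, and the spread within each group was small beside the gap. The gene was 1.27-fold lower with securinine, a difference of -0.34 ± 0.074 (adjusted p = 0.030). The splice forms of BIM differ in killing activity, and a single probe set per gene does not separate them. None of the 4 calls held when any one of the mock or securinine arrays was left out, which leaves 1 array in a group. Far fewer of all genes passed in those fits too. The log2 differences were then 0.64 to 0.70 for BCL2 and 0.45 to 0.63 for BIRC6. They were 0.33 to 0.38 for BIRC2 and -0.35 to -0.34 for BCL2L11. When the limma fit and its adjustment both covered all 53617 probe sets, only BCL2 of these 4 passed. The BIRC2 call was also lost with each array centred on its median (adjusted p = 0.077).

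**Figure D1:**
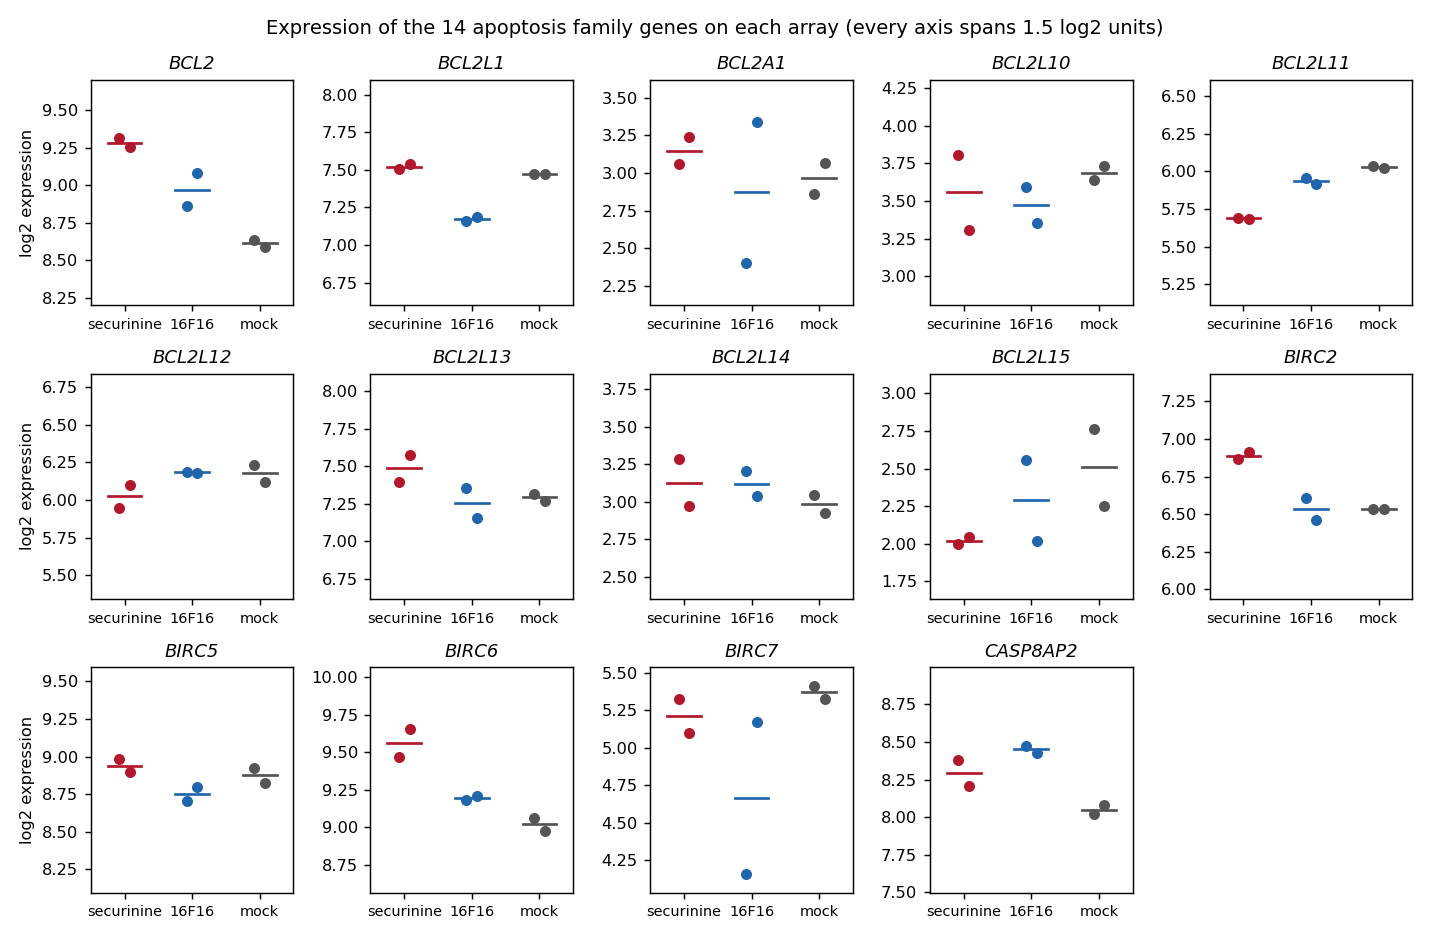
Each panel plots the log2 expression of a gene on every array, with securinine, 16F16 and mock side by side; points are arrays, bars are group means and every vertical axis spans 1.5 log2 units. Securinine points of BCL2 (9.31 and 9.25), BIRC2 and BIRC6 lie above both mock points and those of BCL2L11 (5.69 and 5.68) below, while the 16F16 points of BIRC7 (4.16 and 5.17) and BCL2A1 (2.40 and 3.34) are far apart.

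The genes that did not pass with securinine lay between -0.49 and 0.24, with adjusted p-values of 0.13 to 0.79. Among the pro-survival genes, BCL2L1 had 7.50 and 7.54 in securinine cells and 7.47 and 7.47 in mock cells. That difference of 0.048 had a 95% confidence interval of -0.14 to 0.23, so an increase as large as that of BCL2 lies outside it. BCL2A1 was at 0.18 ± 0.30 and BCL2L10 at -0.13 ± 0.18, with wide 95% intervals of -0.56 to 0.92 and -0.58 to 0.32. CASP8AP2, also known as FLASH and needed for histone mRNA processing, was at 0.24 ± 0.092 with both securinine arrays (8.38 and 8.21) above both mock arrays (8.02 and 8.08), and did not pass (adjusted p = 0.13). BIRC5, which encodes survivin of the chromosomal passenger complex, was at 0.066 ± 0.088, and BIRC7, which encodes livin, at -0.15 ± 0.32.

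The less studied BCL2 relatives gave 0 calls of 4 in limma with securinine, where 19% of all genes passed. At an unadjusted p under 0.05 there were also 0, where 4998 of all 14884 genes were. BCL2L13, a protein of the outer mitochondrial membrane that acts as a mitophagy receptor, was at 0.19 ± 0.11, BCL2L12 at -0.15 ± 0.092 and BCL2L14 at 0.14 ± 0.13. BCL2L15 was at -0.49 ± 0.23, and its signal did not exceed the lower quartile of probe sets on any of the 6 arrays. In all, the securinine and mock arrays did not overlap for 9 of the 14 genes (64.3%), where 60.9% of all genes had groups that did not overlap.

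The second comparison was 16F16 against mock. Of the 14 genes 0 passed in limma, where 1.5% of all genes passed, 0.719% higher and 0.779% lower. An unadjusted p under 0.05 was found for 3 of the 14 and for 3139 of all 14884 genes, which are similar shares. Those 3 were CASP8AP2, BCL2L1 and BCL2. CASP8AP2 had 8.48 and 8.43 in 16F16 cells, against 8.02 and 8.08 in mock cells, a difference of 0.40 ± 0.092 (adjusted p = 0.091). For BCL2L1 the arrays read 7.16 and 7.18 in 16F16 cells, against 7.47 and 7.47 in mock cells, a difference of -0.30 ± 0.074 (adjusted p = 0.10). The BCL2 difference with 16F16 was 0.36 ± 0.10 (adjusted p = 0.14). Each of these 3 genes had groups that did not overlap, as did 8 of the 14 (57.1%) and 51.7% of all genes. When the variance prior followed intensity, all 3 passed, with adjusted p-values of 0.0044 for CASP8AP2, 0.020 for BCL2L1 and 0.00906 for BCL2, and 12.1% of all genes passed.

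The remaining 11 genes lay between -0.70 and 0.18 with 16F16. BIRC7 had the lowest value at -0.70 ± 0.32, and its 16F16 arrays were far apart, with 4.16 in replicate 1 and 5.17 in replicate 2, against 5.41 and 5.33 in mock cells. BIRC2 was at -0.0030 ± 0.086 with an interval of -0.22 to 0.21, and BCL2L11 at -0.096 ± 0.074 with an interval of -0.28 to 0.088. BIRC6 was at 0.18 ± 0.095 and BIRC5 at -0.12 ± 0.088. BCL2A1 was at -0.094 ± 0.30, with 2.40 and 3.34 in 16F16 cells against 2.86 and 3.07 in mock cells, and its first 16F16 array lay below the lower quartile of probe sets. BCL2L10 at -0.21 ± 0.18, BCL2L15 at -0.22 ± 0.23, BCL2L14 at 0.14 ± 0.13, BCL2L13 at -0.037 ± 0.11 and BCL2L12 at 0.0060 ± 0.092 completed the list.

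**Figure D2:**
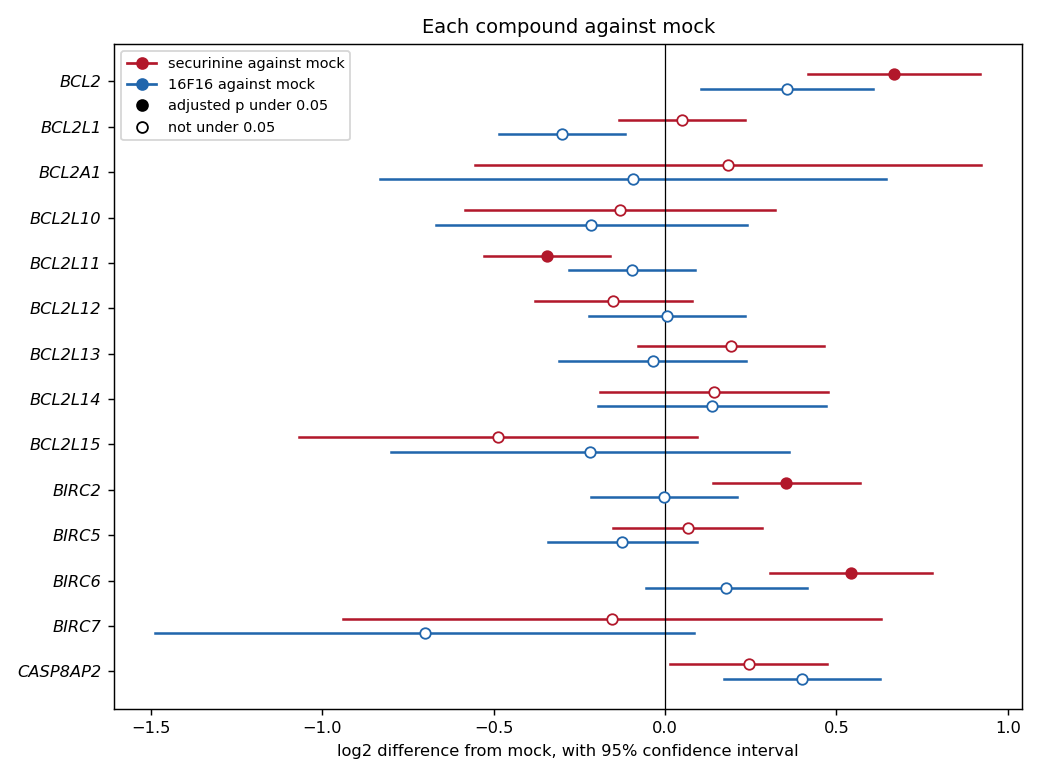
Log2 differences from mock with 95% confidence intervals for the 14 genes, securinine above 16F16 for each gene; filled points have a limma adjusted p under 0.05. The filled points are BCL2 (0.67), BIRC6 (0.54), BIRC2 (0.35) and BCL2L11 (-0.34) with securinine, and every 16F16 point is open.

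The third comparison set 16F16 directly against securinine, since a call with a single compound does not show that the compounds differ. BCL2L1, whose main product BCL-xL guards the mitochondrial membrane, was lower with 16F16. It had 7.16 and 7.18 in 16F16 cells, against 7.50 and 7.54 in securinine cells, a difference of -0.35 ± 0.074 or 1.27-fold (adjusted p = 0.045). It was the single call among the 14 genes (7.14%), where 9.51% of all genes passed. This call was lost when any one of the 6 arrays was left out, where far fewer of all genes passed in this comparison. It was also lost with quantile normalization (limma adjusted p = 0.052) and with each array centred on its median (0.066). Without 16F16 replicate 2 the single call was BIRC7 in its place, at -1.05 (adjusted p = 0.047).

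The genes called with securinine did not pass the direct test at the settings used throughout. BIRC2 was 0.36 ± 0.086 lower on the log2 scale in 16F16 cells than in securinine cells (a difference of -0.36, adjusted p = 0.060), and the difference was -0.36 ± 0.095 for BIRC6 (adjusted p = 0.070) and -0.31 ± 0.10 for BCL2 (adjusted p = 0.12). BCL2L11 was at 0.25 ± 0.074, with 5.96 and 5.91 in 16F16 cells against 5.69 and 5.68 in securinine cells (adjusted p = 0.097). For each of these 4 genes the arrays of the compounds did not overlap, as for 55.8% of all genes. The 4 genes were picked by the same securinine arrays, which favours such a gap, so that share is not a like reference. The 95% intervals were -0.57 to -0.14, -0.60 to -0.13, -0.56 to -0.060 and 0.064 to 0.43. When the variance prior followed intensity, BIRC6 (adjusted p = 0.0026), BCL2 (0.011) and BIRC2 (0.018) did pass, where 20.9% of all genes did, and BIRC2 also passed among genes above the lower quartile (0.046). CASP8AP2 was at 0.16 ± 0.092 with an interval of -0.071 to 0.38. The doses differed, so these values set 4 µM of one compound beside 30 µM of the other.

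**Figure D3:**
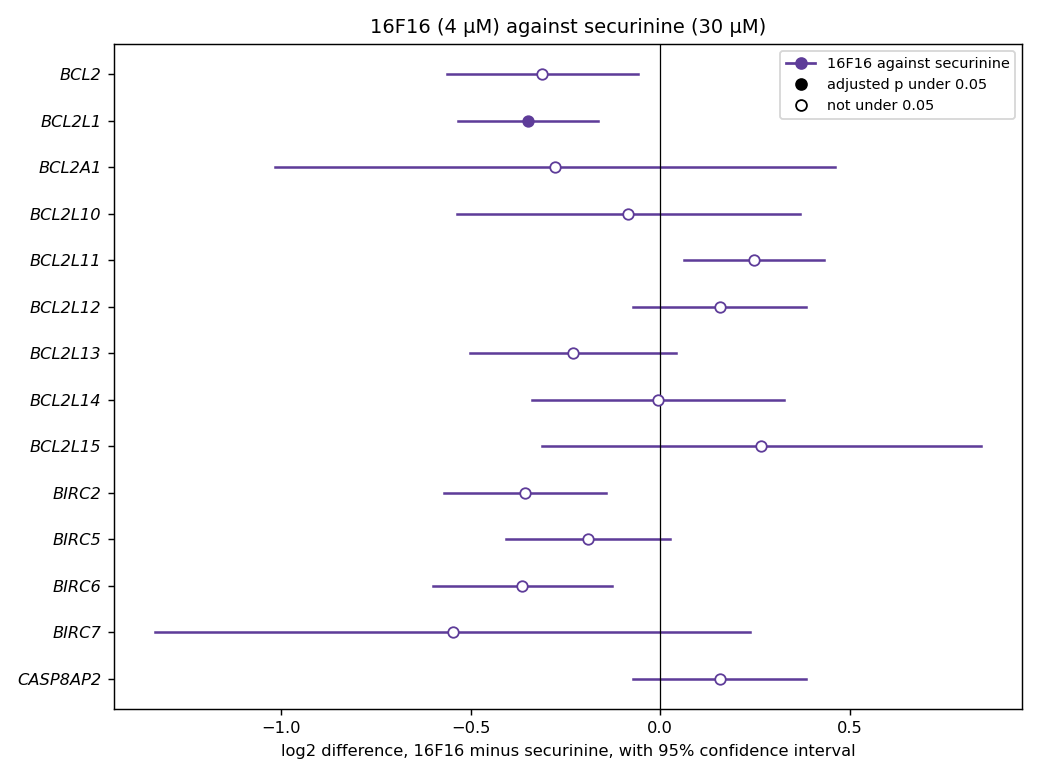
Log2 differences of 16F16 minus securinine with 95% confidence intervals for the 14 genes; filled points have a limma adjusted p under 0.05. BCL2L1 at -0.35 is the filled point, and the intervals of BCL2, BCL2L11, BIRC2 and BIRC6 also lie to one side of 0 while their adjusted p-values are 0.060 to 0.12.

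To place the 14 genes in their pathway, 6 lists of 88 further apoptosis genes were read in the same fit, and 53 of them were measured. The lists were chosen with earlier results of these data known. Setting their counts beside the shares of all genes is therefore a description and not a test of the lists. With securinine 10 of the 53 rose and 1 fell, where 8.4% of all genes rose and 10.6% fell. With 16F16 4 rose and 0 fell, where 0.719% of all genes rose and 0.779% fell. The median differences of the 53 genes were 0.094 with securinine and 0.093 with 16F16, against -0.035 and -0.012 for all genes.

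Of 10 measured BCL2 relatives under other names, 3 rose and 1 fell with securinine, where 19% of all genes passed in either direction. The effector BAX had 9.10 and 9.21 in securinine cells, 8.65 and 8.69 in 16F16 cells and 8.05 and 7.92 in mock cells. BAK1, the other effector, had 7.56 and 7.48 in securinine cells, 7.14 and 7.11 in 16F16 cells and 6.79 and 6.85 in mock cells. Both compounds' arrays lay above mock for both effectors, and securinine was the highest. BAK1 rose by 0.70 ± 0.079 with securinine (adjusted p = 0.0057) and was at 0.30 ± 0.079 with 16F16 (adjusted p = 0.12). BAX rose by 1.17 ± 0.088 with securinine and by 0.69 ± 0.088 with 16F16 (adjusted p = 0.0028 and 0.038). The pro-survival gene MCL1 rose by 0.51 ± 0.083 with securinine (adjusted p = 0.0135), with 9.46 and 9.41 in securinine cells, 9.04 and 9.05 in 16F16 cells and 8.87 and 8.99 in mock cells. The MCL1 call was lost without any one of the mock or securinine arrays, where far fewer of all genes passed too. It was also lost when the limma fit and its adjustment covered all probe sets (adjusted p = 0.061), where 6.81% of all genes passed. BCL2 and MCL1 on the pro-survival side and BAX and BAK1 on the effector side were all higher with securinine.

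Among the BH3-only genes, BMF fell by 0.51 ± 0.0755 with securinine (adjusted p = 0.010), with 6.19 and 6.23 in securinine cells, 6.52 and 6.54 in 16F16 cells and 6.70 and 6.74 in mock cells, with no overlap between the groups. Its 2 probe sets disagreed for 16F16, where the brighter gave -0.19 and their mean 0.12. BID, which is cleaved to link death receptors to mitochondria, was at -0.51 ± 0.14 without passing (adjusted p = 0.054). BBC3 and PMAIP1 were at 0.21 ± 0.080 and 0.24 ± 0.079 with securinine and also did not pass (limma adjusted p = 0.125 and 0.091). BAD was at 0.088 ± 0.10, BIK at -0.074 ± 0.20 and the effector-like BOK at -0.13 ± 0.090.

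Of 8 TNF superfamily ligands and receptors under other names, 1 rose with securinine and with 16F16, where 8.4% and 0.719% of all genes rose. It was EDA2R, the receptor for ectodysplasin A2 (1.84 ± 0.092 and 1.22 ± 0.092). The other 7 did not pass with either compound. TNF itself was at -0.20 ± 0.11 with securinine and -0.17 ± 0.11 with 16F16. Of 18 adaptor, necroptosis and NF-kB genes 3 rose with securinine and 0 fell, where 8.4% of all genes rose and 10.6% fell. CFLAR, which encodes the caspase-8 decoy FLIP, rose by 0.76 ± 0.12, with 5.97 and 5.98 in securinine cells, 5.59 and 5.64 in 16F16 cells and 5.36 and 5.06 in mock cells. TRAF4 rose by 0.66 ± 0.11 and the NF-kB subunit RELA by 0.36 ± 0.079 (adjusted p-values of the 3 genes, 0.011 to 0.032). With 16F16 0 of the 18 passed in limma, where 1.5% of all genes did. At an unadjusted p under 0.05 there were 5, where 3139 of all 14884 genes were, and CFLAR was at 0.40 ± 0.12.

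Downstream of the mitochondria, 6 genes of the apoptosome, mitochondrial release and DNA fragmentation were measured. In limma 0 of the 6 passed with securinine, where 19% of all genes passed. Their unadjusted p was under 0.05 for 2, as it was for 4998 of all 14884 genes. With 16F16 0 passed, where 1.5% of all genes did, and 1 had an unadjusted p under 0.05, as did 3139 of all genes. So few genes tell little about this step. The nuclease gene ENDOG was at -0.37 ± 0.12 with securinine and the mitochondrial protease gene HTRA2 at 0.43 ± 0.091 with 16F16. APAF1, the scaffold of the apoptosome, was at 0.19 ± 0.088 and 0.13 ± 0.088, and XIAP, the caspase inhibitor of the BIRC type, at 0.13 ± 0.093 and 0.22 ± 0.093 with securinine and 16F16. Among 4 inflammasome and pyroptosis genes 0 passed in limma with either compound, and 0 at an unadjusted p under 0.05. They are likewise few beside those shares of all genes. GSDMD was at -0.28 ± 0.12 with securinine and IL18 at 0.22 ± 0.10 with 16F16. The IL18 signal was near the lower quartile of probe sets, and at or below it on 1 array. Of 7 p53-linked death genes 3 rose with securinine, where 8.4% of all genes rose, namely TP53INP1 (1.49 ± 0.078), AEN (1.28 ± 0.0755) and EI24 (0.56 ± 0.086). Of these 7 genes 2 rose with 16F16, where 0.719% of all genes rose, AEN at 0.67 ± 0.0755 and TP53INP1 at 0.59 ± 0.078. Without any one of the mock or securinine replicates, 5 or 6 of the 53 pathway genes rose with securinine and 0 fell, and BAX, BAK1, EDA2R, AEN and TP53INP1 passed under all 15 alternatives. BMF, TRAF4, RELA and EI24 were lost without any one of those 4 arrays, as MCL1 was, and CFLAR without any of them but mock replicate 1. Far fewer of all genes passed in those fits too. With 16F16 the 4 calls were lost without any one of the 6 arrays, as were those of all other genes.

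**Figure D4:**
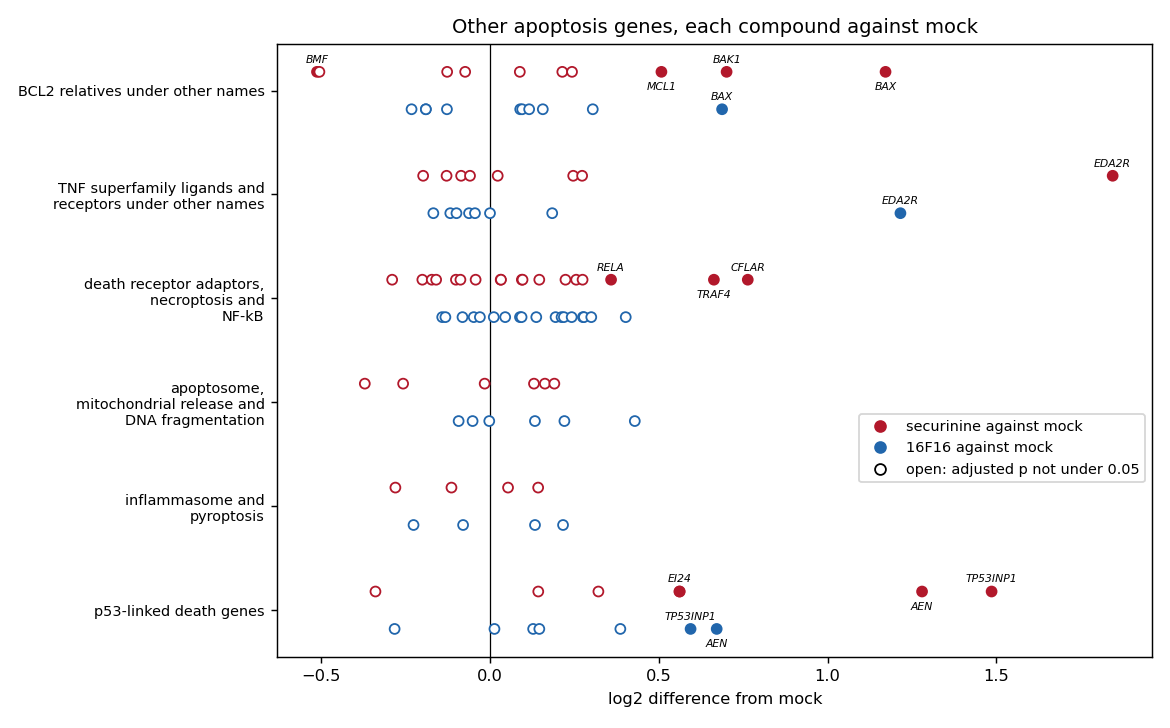
Log2 differences from mock of the 53 measured genes of 6 apoptosis lists, securinine above 16F16 in each list; each point is a gene, and filled, named points have a limma adjusted p under 0.05. EDA2R, TP53INP1, AEN and BAX lie farthest to the right with securinine, and BMF at -0.51 is the filled point on the left.

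In the direct comparison 8 of the 53 pathway genes were lower and 2 higher with 16F16 than with securinine, where 3.96% and 5.55% of all genes were. The lower ones were TP53INP1 (-0.89), TRAF4 (-0.65 ± 0.11), EDA2R (-0.63 ± 0.092) and AEN (-0.61 ± 0.0755). With them were BAX (-0.48 ± 0.088), EI24 (-0.42 ± 0.086), BAK1 (-0.40 ± 0.079) and MCL1 (-0.39 ± 0.083). The higher ones were HTRA2 (0.44 ± 0.091) and the adaptor gene TRADD (0.50 ± 0.11). TRADD had 6.94 and 7.14 in 16F16 cells, against 6.46 and 6.61 in securinine cells. Without securinine replicate 1, securinine replicate 2 or 16F16 replicate 1, 0 of all 14884 genes passed in limma in this comparison (3023 to 3469 at an unadjusted p under 0.05), so these 10 calls were lost as well.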

How the data were processed

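The values are the log2 expression levels that the authors deposited, one per probe set and array, for 53617 probe sets and 6 arrays. The submitters' processing notes name RMA and limma. No source used here gives versions, filters or a genome build, and no detection calls were used. RMA normalizes between arrays and would take out a shift common to most genes. The platform's table named 16098 probe sets (30.0%), matched to RefSeq on GRCh38.p14, which gave 14884 genes, each at its brightest probe set. One limma 3.58.1 fit in R 4.3.3 (lmFit, eBayes, treatment group as the only term) held all 6 arrays, with 3 residual and 2.68 prior degrees of freedom. Two-sided p-values were adjusted by Benjamini-Hochberg across these 14884 genes, with 0.05 as the threshold. Errors are standard errors of the fit (median 0.11). The 14 genes and the lists were chosen with earlier results of these data known. All 14 are named, and of each further list the called genes (4 at most) or the one with the lowest p. Other uncalled relatives were named for their role after their values were seen. Every pathway gene called between the compounds was named. Alternatives covered arrays left out, scaling, variance prior, dim genes, probe sets and a replicate block.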

Additional observations from a re-analysis of the deposited data

Results flagged for a closer look

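BCL2L1 differed between the compounds in the test of the difference itself. It was -0.35 on the log2 scale for 16F16 minus securinine, with 7.16 and 7.18 in 16F16 cells against 7.50 and 7.54 in securinine cells (limma adjusted p = 0.045). Against mock it was at -0.30 with 16F16 and at 0.048 with securinine, without passing in either. The call held in 4 of 15 alternatives and was lost in 11, with adjusted p-values up to 0.165, among them each single array left out, the replicate block (0.088) and median centring (0.066). The doses of the compounds differed.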

How the results depend on the processing

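The differences between replicate 2 and replicate 1 correlated at -0.032 to 0.038 between mock and either compound. Between the compounds the correlation was -0.050. Such low correlations over the genes do not tell whether the cultures were paired by replicate number. With the replicate block the 14 genes gave 2 rises and 0 falls with securinine, 0 calls in 16F16 against securinine, and 0 pathway genes with 16F16. The 4 arrays of the groups compared alone gave 0 pathway genes with 16F16 and 0 of the 14 genes lower in 16F16 against securinine. Quantile normalization and median centring gave 2 pathway genes lower with securinine each, and 0 of the 14 genes lower in 16F16 against securinine each. With the intensity trend, 4 pathway genes fell with securinine, 2 of the 14 genes rose and 1 fell with 16F16, 10 pathway genes rose with 16F16, and 4 of the 14 genes were lower in 16F16 against securinine. Keeping only genes above the lower quartile, which tests fewer genes, gave 2 pathway genes lower with securinine and 2 of the 14 genes lower in 16F16 against securinine. Fitting and adjusting over all probe sets, which also re-estimates the variance prior, gave 1 rise and 0 falls of the 14 genes with securinine. Pathway genes then gave 6 rises and 0 falls with securinine and 0 calls with 16F16. In 16F16 against securinine 0 of the 14 genes passed. Leaving out 1 array gave 0 to 3 rises and 0 to 1 falls of the 14 genes and 5 to 10 rises and 0 to 1 falls of pathway genes with securinine, 0 to 0 rises of pathway genes with 16F16, and 0 to 1 of the 14 genes lower in 16F16 against securinine. Over all genes, 1251 rose and 1572 fell with securinine, and leaving out 1 array gave as few as 253 and 376. With 16F16 107 rose and 116 fell, against 0 and 0 with the replicate block, without any 1 array or over all probe sets, and 853 and 955 with the intensity trend. In 16F16 against securinine 826 genes were higher and 590 lower, against 342 and 161 with the block, 0 and 0 without either securinine array or 16F16 replicate 1, and 1564 and 1543 with the trend. The causes of these changes were not tested.

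Reversals of sign concerned genes not called in the comparison where the sign changed. Of these genes BIRC2, TRAF4 and BMF were called with securinine. Leaving out 1 array, values ranged from -0.56 to 0.37 (BCL2A1), -0.049 to 0.061 (BCL2L12), -0.14 to 0.063 (BCL2L13), -0.49 to 0.050 (BCL2L15), -0.076 to 0.070 (BIRC2) and -0.12 to 0.14 (TRAF4) for 16F16 against mock. They ranged from -0.38 to 0.12 (BCL2L10) and -0.015 to 0.30 (BCL2L14) for securinine against mock. For 16F16 against securinine they ranged from -0.74 to 0.19 (BCL2A1), -0.33 to 0.17 (BCL2L10), -0.16 to 0.15 (BCL2L14) and -0.0029 to 0.54 (BCL2L15). With quantile normalization BCL2L12 was at -0.00488 for 16F16 against mock and BCL2L14 at 0.000639 for 16F16 against securinine, and BCL2L14 was at 0.025 with median centring. BMF was at 0.12 for 16F16 against mock as the mean of its probe sets. Signals near the lower quartile limit BCL2L15, BCL2A1 and BCL2L14.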

Other observations

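Names close to the families belonged to 3 transcripts that are not protein-coding. CASP12, a transcribed pseudogene in RefSeq, did not exceed the lower quartile of probe sets on any of the 6 arrays. TNFRSF14-AS1 was at -0.027 ± 0.081 with securinine and 0.24 ± 0.081 with 16F16, and TNFRSF10A-DT at -0.19 ± 0.13 and 0.046 ± 0.13, and neither passed in limma.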
